A study of Mus musculus with 12 samples.

Results

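The nuclear genome encodes most subunits of the mitochondrial respiratory chain, and these genes were followed around the clock in CD8+ T cells, the cytotoxic lymphocytes. The members were all protein-coding genes whose symbols begin with Ndufa, Ndufb, Ndufc, Ndufs, Ndufv, Uqcr, Cox4i, Cox5, Cox6, Cox7, Cox8 or Atp5, together with Sdha, Sdhb, Sdhc, Sdhd and Cycs. This choice used names only and took 94 of 50600 genes, of which 89 had enough counts to be tested. The prefix Ndufa also takes 8 assembly factors of complex I, and Ndufa4 is grouped here with complex IV, of which its product is a subunit. PolyA RNA had been sequenced from lymph node CD8+ T cells of male C57BL/6J mice aged 8 weeks, all kept in constant darkness with no other treatment named. There were 6 circadian times (CT2, CT6, CT10, CT14, CT18 and CT22, in hours) and 2 days of collection, with 1 library for each time and day and 12 in all. The number of mice behind a library and the way the cells were purified are not stated in the labels. The p-values therefore measure spread between these samples, which may be technical.

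The respiratory chain sits in the inner mitochondrial membrane. Complex I and complex II pass electrons from NADH and succinate to ubiquinone, complex III hands them to cytochrome c, and complex IV gives them to oxygen. The proton gradient built on the way drives complex V, the ATP synthase. Naive T cells rely largely on this oxidative metabolism, and activated T cells add glycolysis to it. All of complex II and most subunits of the other complexes are nuclear-encoded, and a small set of core subunits is made from mitochondrial DNA.

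Each library held between 24689964 and 33497078 counts on genes. Markers of CD8 and T cells (9 of 9 detected) summed to between 6398 and 8105 CPM (counts scaled to the library's total). The sums were 152.7 to 304.1 CPM for 9 B cell markers and 103.3 to 163.7 CPM for 7 CD4 T cell markers. Higher sums were reached by 12 monocyte and macrophage markers, from 280.7 CPM (CT10 day 1) to 1224 CPM (CT22 day 2). The 7 dendritic cell markers summed to between 339 and 669.7 CPM, so RNA of other cells was present and varied between libraries. The library of CT2 on day 1 stood apart from the other 11. The chi-square per degree of freedom between the 2 libraries of a time was 37.8 at CT2 and between 2.96 and 10.1 at the other times. Results that rest on this library are given with and without it.

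Levels between genes were compared in TPM, which scales for transcript length. Together the 94 genes took between 12910 TPM (CT10 day 1) and 15070 TPM (CT2 day 1), with a median of 13540 TPM over 12 libraries and a maximum of 13750 TPM without CT2 day 1. Complex V contributed most, with a median sum of 4658 TPM over 16 genes, followed by the 12 ubiquitous complex IV genes with 3438 TPM. The 29 supernumerary (accessory) subunits of complex I summed to 2882 TPM, complex III with cytochrome c to 1498 TPM, the 7 core subunits of complex I to 544.1 TPM and complex II to 377 TPM. The 13 mitochondrially encoded subunits summed to between 47390 and 59780 TPM.

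**Figure D1:**
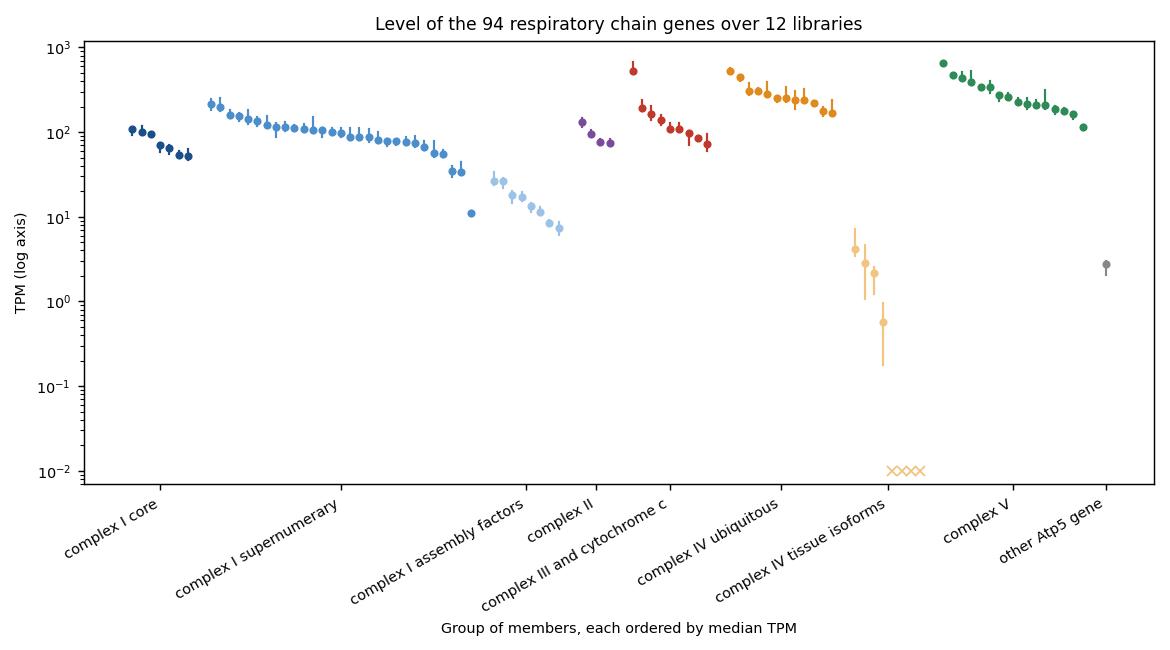
TPM (log axis) of the 94 members, grouped by complex and ordered by median within each group. Points are medians over 12 libraries, bars run from the lowest to the highest library, and crosses mark genes with a median of 0. Subunits of complexes IV and V stand highest, from Atp5b at 647.9 TPM downward, while the tissue isoforms of complex IV lie below 5 TPM.

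The most abundant member was Atp5b, which encodes the catalytic beta subunit of ATP synthase, at a median of 647.9 TPM. Next were Uqcrh, the hinge protein of complex III, at 531.7 TPM, and Cox7a2l, grouped here with complex IV, at 531.2 TPM. Atp5e, the epsilon subunit of ATP synthase, followed at 467.7 TPM, and Cox4i1, a nuclear subunit of complex IV, at 443.9 TPM. In complex I, the core subunits Ndufs3 and Ndufv2 had medians of 107.5 and 100.9 TPM, and the core subunit Ndufs8 was lowest of that group with 51.99 TPM. Among the accessory subunits Ndufa3 and Ndufa6 led with 213.5 and 197.2 TPM, and Ndufa11 was lowest at 11.04 TPM. Ndufa11 also had the greatest effective length of all tested members, 2522 bases, and its TPM rests on that length. The assembly factors of complex I, which help to build the enzyme and then leave it, lay lower, from Ndufaf6 at 7.335 TPM to Ndufaf8 at 26.45 TPM. In complex II, the flavoprotein Sdha had 130 TPM, the iron-sulphur subunit Sdhb 96.09 TPM, and the membrane anchors Sdhc and Sdhd 76.22 and 73.59 TPM. Cytochrome c, from Cycs, had a median of 72.33 TPM, the lowest of its group.

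Paralogous isoforms of complex IV differed widely in level, and in each pair the ubiquitous form dominated. The median TPM of Cox4i1 was 157 times that of Cox4i2, an isoform best known from lung. Cox6a1 stood 60 times above Cox6a2, the heart and muscle form, and Cox6b1 stood 142 times above Cox6b2, the testis form. Cox7a2 had 293 times the level of Cox7a1, another heart and muscle form that gathered only 50 counts in all 12 libraries. Cox8b gathered 4 counts and Ndufa4l2 2 counts, while Cox7b2 and Cox8c had none. A count of 0 allows up to 3 counts, which here is 0.0896 to 0.122 CPM depending on the library (counting error only). These 5 genes (Cox7a1, Cox7b2, Cox8b, Cox8c and Ndufa4l2) were not tested. Atp5s, which matches the Atp5 prefix but is grouped here apart from the subunits, had 2.77 TPM.

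The rotor ring of ATP synthase is built from subunit c, a single mature protein that 3 genes encode. Their summed level lay between 626.3 and 668.6 TPM over the 12 libraries. Atp5g3 gave a median of 41.8% of the sum, Atp5g2 40.4% and Atp5g1 17.6%, and Atp5g2 ranged from 38% to 44.3%. The expected counts of RSEM, which share out reads that match several places, exceeded the plain counts of Atp5g2 by 2.28 times. This ratio was above 1.5 for 7 of 89 members (Atp5l, Atp5g2, Ndufb2, Cycs, Ndufs5, Ndufb8 and Cox7a2l), against 5.99% of all tested genes, and had a median of 0.909. Reads of these 7 genes may be shared with near-identical copies, so their counts are uncertain.

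The series title asks which transcripts follow the circadian cycle, and no respiratory chain gene passed a test for it. With edgeR's quasi-likelihood test and Benjamini-Hochberg adjustment over 16396 genes, 0 of 89 members passed for a 24 h wave (background 0%) and 0 of 89 for any difference among the 6 times (background 0.256%). The smallest adjusted p was 0.248 for the wave and 0.262 for the times, both for Ndufa7. At an unadjusted p under 0.05 there were 10 members for the wave, against 13.3% of all tested genes, and 8 for the times, against 12.7%. DESeq2 also passed 0 members, against 1.86% of genes with an adjusted p for the wave and 4.09% for the times. At an unadjusted p under 0.05 it had 12 members for the wave, against 13.3% of all tested genes, and 11 for the times, against 10.5%. With limma on log2(TPM + 1) 0 members passed either (background 0% and 0.165%). There 16 members had an unadjusted p under 0.05 for the wave, against 9.55% of all genes tested, and 3 for the times, against 9.61%, so the 2 tests lay on opposite sides of the background. Fewer transcripts per cell and fewer cells of a kind cannot be told apart in such bulk samples.

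Fitted waves were shallow in every complex. The amplitude (log2 units, from the wave's midline to its crest) had a median of 0.091 over the 89 members and 0.1 over all tested genes. In simulated data the wave test recovered only 10% of genes with a true amplitude of 0.1 and 42% with 0.2. Waves this shallow could therefore be missed. By group the medians were 0.039 for the complex I core, 0.104 for its accessory subunits, 0.08 for complex II, 0.104 for complex III with cytochrome c, 0.107 for ubiquitous complex IV genes and 0.081 for complex V. No amplitude plus 2 standard errors exceeded 0.342 outside the tissue isoforms of complex IV. Fitted peaks fell from 0 to 6 h in 57 members, from 6 to 12 h in 11, from 12 to 18 h in 2 and from 18 to 24 h in 19. Over all 16396 tested genes these counts were 4455, 3964, 3994 and 3983. With the day as a block Atp5j2 peaked at 1.45 h, Uqcrh at 3.35 h and Cox7a2 at 1.85 h. Without CT2 day 1, in a fit with no block, these were 19.8, 10.72 and 1.31 h. The amplitudes there were only 0.025, 0.039 and 0.047 log2, so these peak hours are poorly set. Whether the peaks moved cannot be read from them. Without CT2 day 1 the median amplitude of the members was 0.044, against 0.094 over all tested genes, and again 0 members passed either test. For the wave 11 then had an unadjusted p under 0.05, against 15.7% of all tested genes.

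**Figure D2:**
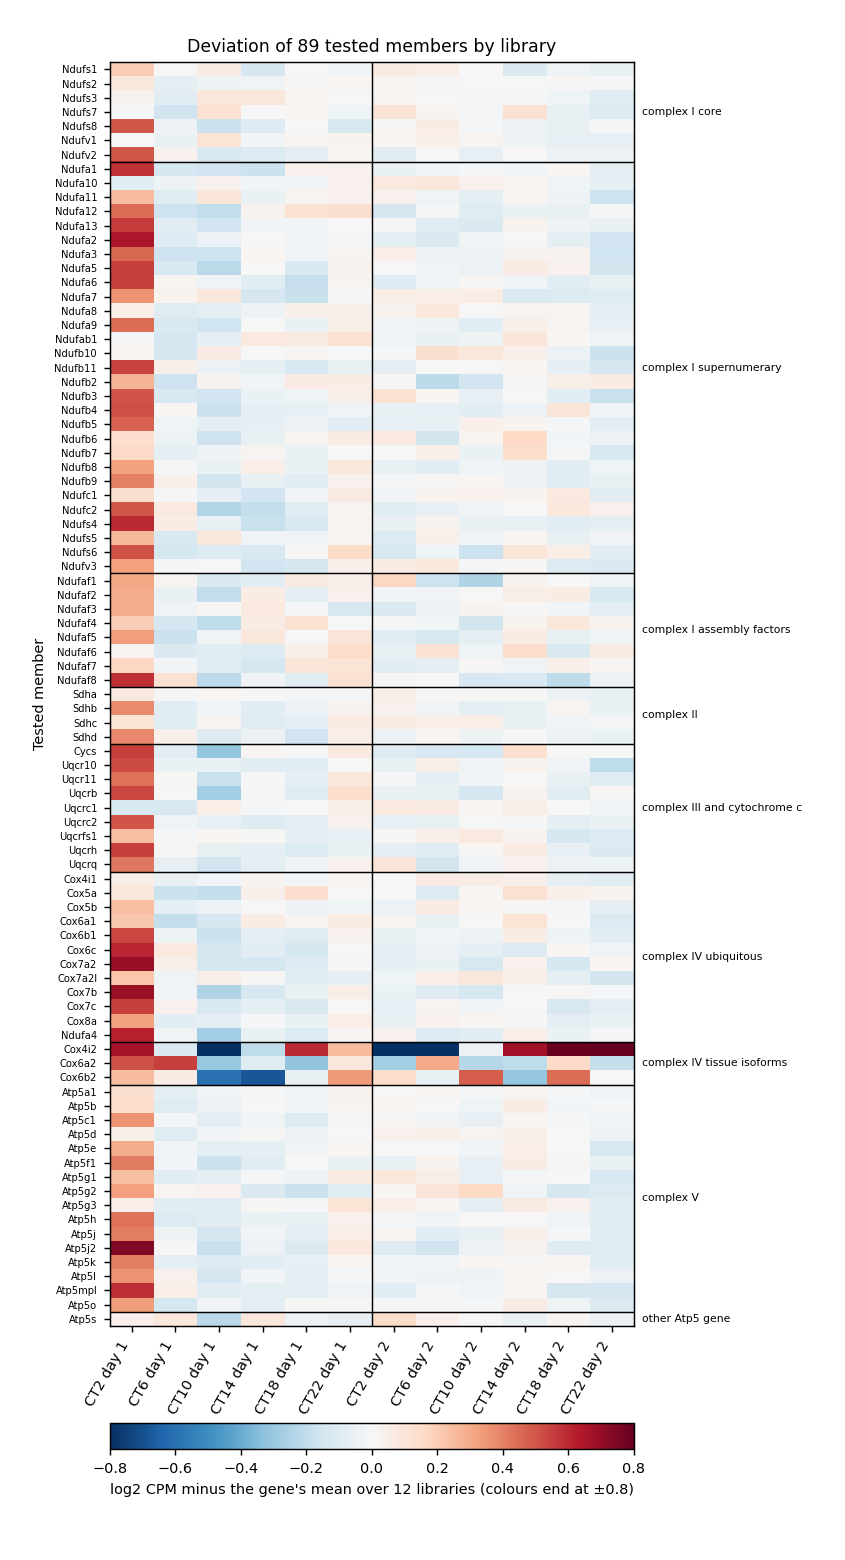
Log2 CPM of each of the 89 tested members minus its mean over the 12 libraries, with libraries in columns (6 of day 1, then 6 of day 2) and genes in rows grouped by complex. The CT2 day 1 column is red for most genes of every complex, and the other 11 columns are pale apart from Cox4i2, Cox6a2 and Cox6b2.

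The pattern that the members did share lay in 1 library. In CT2 day 1 the mean of the 89 members was 0.337 log2 CPM above their own average, while in the other 11 libraries it lay between -0.105 (CT10 day 1) and 0.029 (CT22 day 1). CT2 day 2, the same circadian time a day later, was at -0.028. For 71 of 89 members (79.8%) CT2 day 1 was the highest of the 12 libraries, which held for 19.1% of all tested genes. It lay above the mean of the other 11 for 86 members, against 50.6% of all tested genes. CT10 day 1 was the lowest library for 29 of 89 members, against 13% of all tested genes. CT2 day 2 was the highest library for 2 of 89 members, against 1592 of 16396 tested genes, and the CT2 level of the group rests on 1 library. How many members were high on both days of CT2 was not counted.

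The difference was seen in every complex, at unequal size. The difference of CT2 day 1 from the mean of the other 11 libraries had a median of 0.39 log2 CPM over all members and 0.004 over all tested genes. It was largest for complex III with cytochrome c (0.549), the 3 tested tissue isoforms of complex IV (0.543) and complex I accessory subunits (0.484). Then came ubiquitous complex IV genes (0.466), complex V (0.376), complex I assembly factors (0.321), complex II (0.266) and the complex I core (0.1). With the trend on transcript length removed these were, in the same order, 0.264, 0.306, 0.224, 0.207, 0.136, 0.192, 0.194 and 0.049, so the ranking changed. The median coefficient of variation of a member over the libraries was 10.1%, and it was 4.63% without CT2 day 1. Over all tested genes these values were 11.6% and 10.2%.

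**Figure D3:**
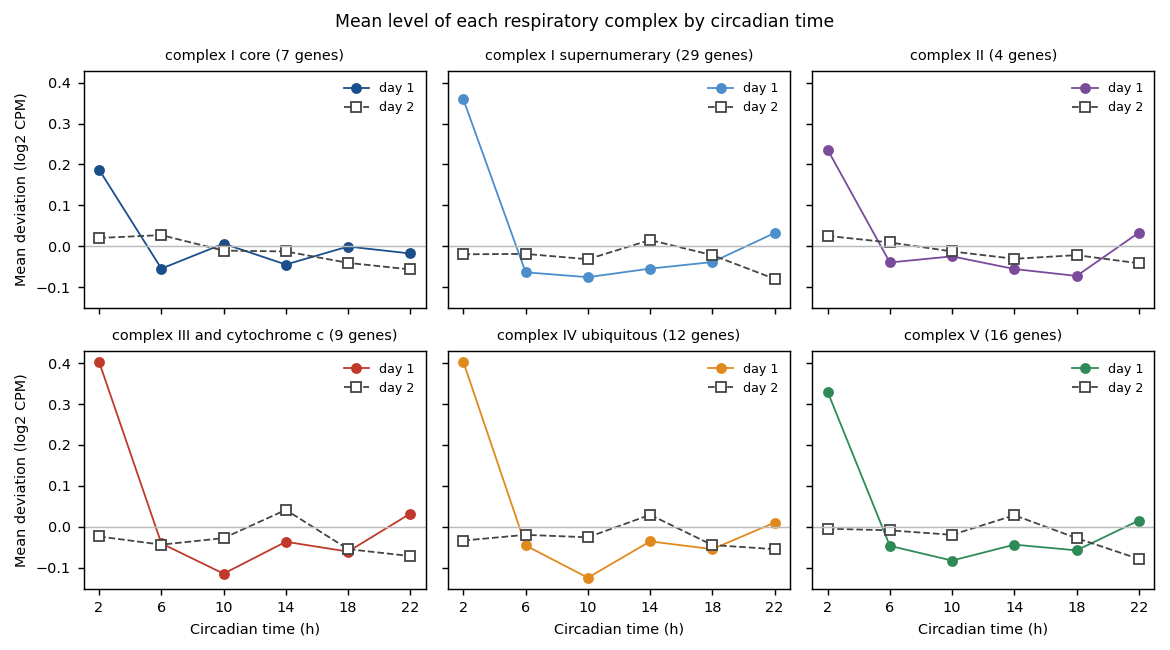
Mean over genes of the log2 CPM deviation from each gene's own mean, by circadian time (h), for 6 groups of members. Filled circles are day 1 and open squares day 2, 1 library each. CT2 day 1 reaches 0.187 to 0.403, while every other library lies between -0.125 and 0.041.

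The 3 largest differences of single genes in CT2 day 1 were those of Atp5j2, Cox7a2 and Cox7b, picked here by that value. Atp5j2, which encodes subunit f of ATP synthase, was at 164 CPM there and between 86.4 and 103.7 CPM in the other 11 libraries. Cox7a2, a small subunit of complex IV, was at 118.8 CPM against 66.45 to 75.8 CPM elsewhere, so that its difference was 0.758 log2. Cox7b, another such subunit, reached 179.1 CPM against 93.69 to 114.9 CPM, and Ndufa4 137.4 CPM against 74.09 to 92.63 CPM. In these 4 genes the CT2 day 1 value did not overlap the rest, and CT2 day 2 stood among the other libraries, at 69.74 CPM for Cox7a2 and 91.26 CPM for Atp5j2. Uqcrh, the most abundant gene of complex III, was at 289 CPM against 183.1 to 207.8 CPM. Cytochrome c (Cycs) was at 62.3 CPM against 34.39 to 46.92 CPM.

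Other members hardly moved in that library, and 3 lay below the mean of the rest. These 3, chosen after their values were seen, were Uqcrc1, a core protein of complex III, with -0.129 log2, Ndufa10, an accessory subunit of complex I, with -0.092, and Ndufab1, the mitochondrial acyl carrier protein, with -0.015. Uqcrc1 was at 109.5 CPM in CT2 day 1 and ranged from 108.6 to 125.3 CPM over the others, so the values overlapped. Sdha ranged from 249.2 to 272.4 CPM over all 12 libraries. Within complex II the iron-sulphur subunit Sdhb stood at 112.3 CPM against 80.91 to 88.33 CPM, and Sdhd at 89.34 against 61.67 to 71.25 CPM. Sdhc, at 68.76 CPM, lay just above the range of 59.59 to 66.79 CPM in the rest. In the complex I core, Ndufs8 and Ndufv2 were at 67.27 and 117.4 CPM in CT2 day 1, above maxima of 49.74 and 85.45 CPM elsewhere, whereas Ndufs3 differed by 0.03 log2. These values compare single libraries and carry no test.

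Transcript length moved with this library, and GC content did so no more than in other libraries. Across all tested genes the deviation in CT2 day 1 correlated with log2 effective length at a Spearman rho of -0.315, while the other 11 libraries gave -0.046 to 0.238. The rho with GC content was -0.157, within the range of -0.165 to 0.216 in the others. Genes are not independent replicates, and these correlations describe libraries. The members are short, with a median effective length of 562 bases against 1972 for all tested genes, and 66 of 89 lie under 1000 bases. Within each range of length the median of the members lay above that of all tested genes. Under 500 bases the median difference was 0.482 for 34 members and 0.292 for all tested genes, from 500 to 1000 bases 0.338 for 32 members and 0.168, and from 1000 to 1500 bases 0.364 for only 16 members and 0.066. From 1500 bases upward it was 0.213 for only 7 members and -0.051.

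**Figure D4:**
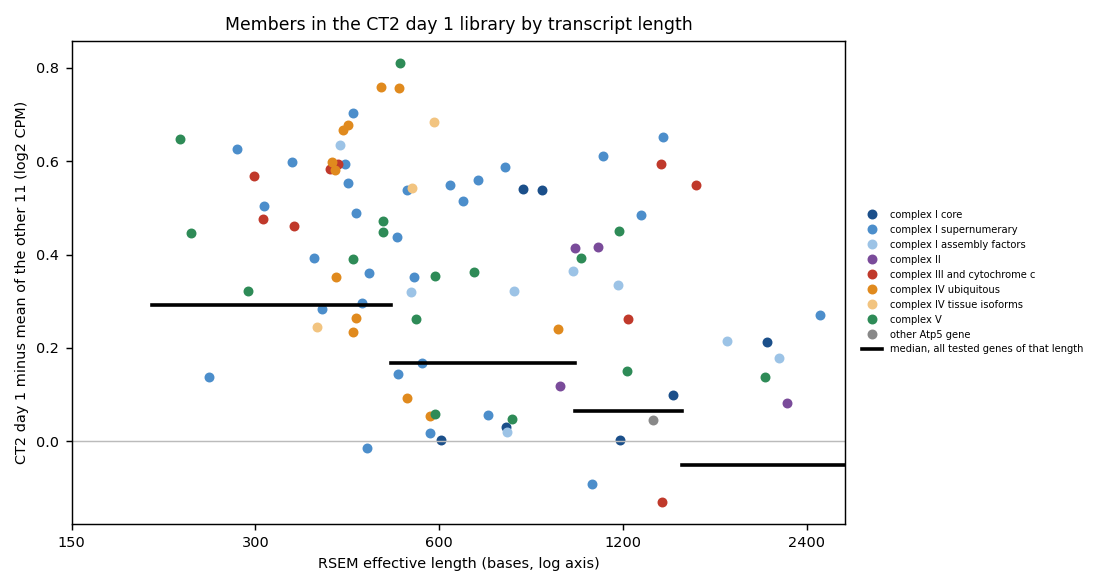
Difference of CT2 day 1 from the mean of the other 11 libraries (log2 CPM) against RSEM effective length (bases, log axis) for the 89 tested members, coloured by group. Black lines are medians of all tested genes in 4 ranges of length, from 0.292 under 500 bases to -0.051 above 1500. Most members lie above the line of their range, and the 7 members of 1500 bases or more lie between 0.083 (Sdha) and 0.549.

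With the trend on length removed, the median difference of the members was 0.192 and that of all tested genes -0.006. With the trend on GC removed it was 0.378. In TPM the median was 0.162 for members and -0.168 for all tested genes, a shift of the whole scale, so relative to all genes the members stood higher there too. On that scale 64 of 89 members were above the mean of the other 11 libraries, against 23.6% of all tested genes. On TPM the core of complex I was at -0.07 and complex II at 0.038, close to or below their mean in the other libraries but above the all-gene median. The summed markers of 10 cell type lists had neither their highest nor their lowest value in CT2 day 1. Gene by gene, however, markers of some other cells were also higher there than in the mean of the other 11 libraries. The median difference was 0.358 log2 for monocyte and macrophage markers (11 of 12 above the mean), 0.325 for B cell markers (9 of 9) and 0.333 for stroma and endothelium (6 of 6 tested). Of all tested genes 50.6% lay above that mean. Medians were smaller for neutrophil (0.248), NK cell (0.189), dendritic cell (0.07) and CD4 T cell markers (0.065), and the 1 erythroid gene tested had -0.084. With the length trend removed the monocyte, B cell and stroma medians were 0.389, 0.277 and 0.413, above the 0.192 of the members. Those of neutrophil (0.071), NK cell (0.108), dendritic cell (0.132), CD4 T cell (-0.018) and erythroid markers (-0.336) lay below it. In TPM the monocyte, B cell and stroma medians were 0.086, 0.049 and -0.023, below the 0.162 of the members. The CD8 and T cell markers had a median of 0.135 (8 of 9 above) and naive T cell markers -0.165 (1 of 5 above). The part of transcript length and of these cells in the members' difference was not tested.

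Of single genes, Ndufa7 had the smallest p for the wave. It encodes an accessory subunit of complex I and lies on chromosome 17 from 33824572 to 33838317 (GRCm38, ENSMUSG00000041881.12). It ranged from 45.82 CPM (CT18 day 1) over a median of 52.39 to 66.57 CPM (CT2 day 1). The 6 libraries of CT2 to CT10 lay at 52.96 CPM or above and the 6 of CT14 to CT22 at 51.81 CPM or below, without overlap, and the same held in TPM, at 157.3 to 169.3 against 135.4 to 149.2. This split of the times was seen in the data and carries no test, and the share of all tested genes that split so is not given here. The amplitude was 0.155 ± 0.040 log2 (standard error) with a peak at 4.31 ± 0.985 h, an unadjusted p of 0.0062 and an adjusted p of 0.248 (edgeR). Without CT2 day 1 the amplitude was 0.112 with a peak at 5.29 h and an adjusted p of 0.176.

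Atp5g2 followed a similar course. It encodes subunit c and lies on chromosome 15 from 102662864 to 102672352. It ranged from 49 CPM (CT18 day 1) over 54.9 to 69.17 CPM (CT2 day 1), with all 6 libraries of CT2 to CT10 at 55.88 CPM or above and all others at 53.92 CPM or below. In TPM the lowest of the first 6 was 260.8 and the highest of the others 256.7. This split was likewise seen in the data and carries no test. The amplitude of Atp5g2 was 0.150 ± 0.040 log2 with a peak at 5.58 ± 1.02 h and an adjusted p of 0.254 (edgeR). It was the only member to pass the 24 h test in any alternative, with an adjusted p of 0.0441 and an amplitude of 0.123 when both CT2 libraries were left out, where 2.63% of all tested genes passed. The test of times passed 0 members there, against 3.21% of all tested genes. With only CT2 day 1 left out its adjusted p was 0.176. Its paralogs had amplitudes of 0.068 ± 0.038 (Atp5g1) and 0.043 ± 0.029 (Atp5g3, fitted peak at 21 h), and a difference in wave between the 3 genes was not tested.

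Cox5a, which encodes a subunit of complex IV, ran the other way. It had its lowest values at CT6 and CT10 day 1, from 74.02 to 78.58 CPM, and its highest in CT18 day 1 with 92.81 CPM. CT10 day 2, at 85.27 CPM, lay well above CT10 day 1. Its amplitude was 0.1 ± 0.033 with a peak at 18.7 ± 1.26 h and an adjusted p of 0.329. Ndufaf4, an assembly factor of complex I, was lowest at CT10 with 33.36 and 34.61 CPM and highest in CT2 day 1 with 44.02 CPM, and at CT18 it had 41.76 and 40.92 CPM. Its amplitude was 0.111 ± 0.038 with a peak at 20.6 h, and without CT2 day 1 the peak was at 19.25 h with an adjusted p of 0.193. Ndufs1, which carries iron-sulphur clusters of the complex I core, was lowest at CT14 with 93.76 and 95.24 CPM and highest at CT2 with 118 and 107.7 CPM. In TPM its highest library was CT10 day 1 with 59.68 and CT2 day 1 had 51.65, so the order of its times depends on the scale.

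**Figure D5:**
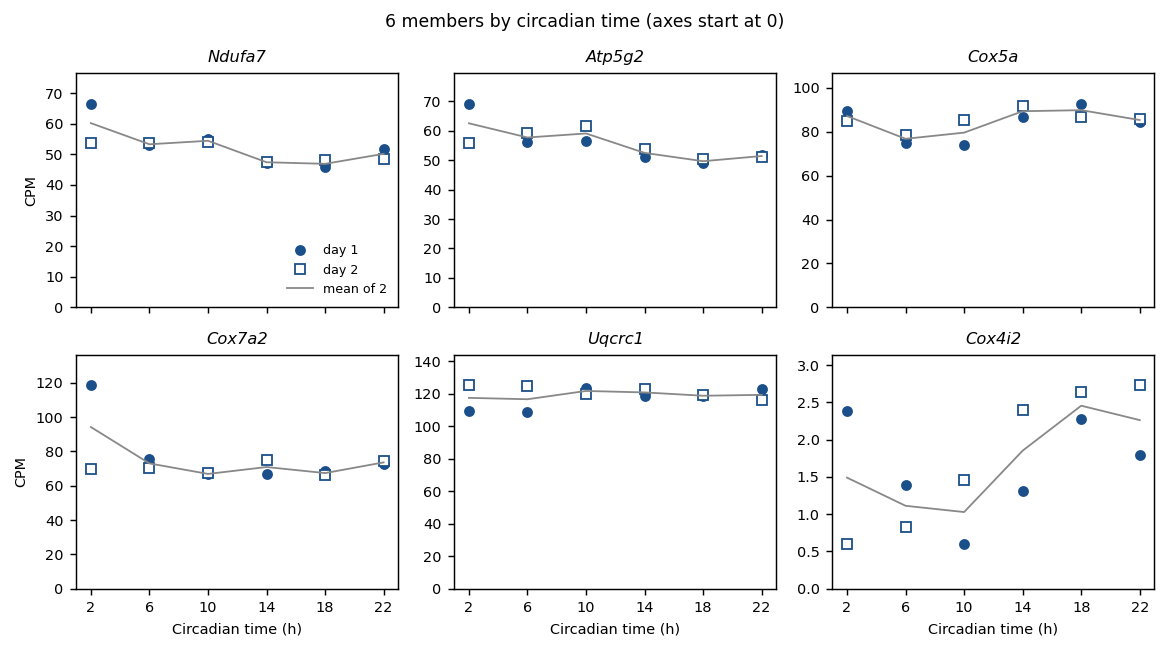
CPM of 6 members by circadian time (h), with filled circles for day 1, open squares for day 2 and a line through the mean of the 2 libraries. Axes start at 0. Ndufa7 and Atp5g2 are higher from CT2 to CT10, Cox5a is lower at CT6, Cox7a2 has 1 high library at CT2, Uqcrc1 stays between 108.6 and 125.3 CPM and Cox4i2 varies most.

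Cox4i2 had the largest amplitude of all members, 0.664 ± 0.212 with a peak at 19.4 h, on 16 to 79 counts per library. It ranged from 0.601 CPM (CT2 day 2) over 1.62 to 2.73 CPM (CT22 day 2), and its adjusted p was 0.311. Both lowest libraries, CT2 day 2 and CT10 day 1 (0.602 CPM), were also those with the least monocyte and macrophage RNA. The 12 markers of that list (12 of 12 detected, none at 0 in total) summed to 290.7 and 280.7 CPM there, and to between 466.3 and 1224 CPM in the other 10 libraries, with the maximum in CT22 day 2. CT2 day 2 and CT10 day 1 were also the 2 lowest for neutrophil (11.42 and 11.46 CPM) and dendritic cell markers (339 and 364.6 CPM). The same held for NK cell (164.9 and 137 CPM) and CD4 T cell markers (111.6 and 103.3 CPM). It did not hold for the B cell, stroma and endothelium, or erythroid lists. The part of any of these cells in the Cox4i2 values was not tested.

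Of the other members with an unadjusted p under 0.05 for the times, Ndufb3, Uqcrq and Ndufa4 were highest in CT2 day 1. Ndufb3 stood at 54.35 CPM in CT2 day 1 and 41.8 CPM in CT2 day 2, and at 33.94 to 39.68 CPM at the other times, so here both CT2 libraries were the top 2. Uqcrq, a small subunit of complex III, had 55.13 and 43.98 CPM at CT2 and 36.8 to 42.16 CPM at other times, again with both CT2 libraries on top. Genes named here were picked by the test of times, so CT2 libraries apart from the rest follow from the choice and add no support. The share of all tested genes with both CT2 libraries on top is not given here. The assembly factor Ndufaf1 had 22.81 and 20.69 CPM at CT2 and 15.57 to 19.31 CPM elsewhere. Their adjusted p-values for the times were 0.317, 0.321 and 0.321 (edgeR), and none passed without CT2 day 1.

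The choice of libraries decided how many members passed the test of the 6 times. Without CT2 day 2, so that CT2 was represented by the library that stands apart, 51 of 89 members passed, and 11% of all tested genes did. CT2 day 1 was the highest library in all 51. Of these, 18 were accessory subunits of complex I, 10 belonged to complex V, 8 to the ubiquitous complex IV genes and 8 to complex III with cytochrome c. Without CT2 day 1 instead, 0 of 89 members passed, and 4% of all tested genes did. An unadjusted p under 0.05 was then seen in 9 members, against 20.3% of all tested genes. With no filter on low counts 31 of 92 members passed the test of times, against 7.17% of 29911 genes. CT2 day 1 was highest in 30 of these 31, the exception being Cox4i2, and 30 of the 31 (96.8%) were among the 51 (58.8% of them). For the 24 h wave 0 of 89 members passed without CT2 day 2, against 0.866% of all tested genes, and 0 of 92 with no filter, against 1.08%.

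The 2 days of collection were also compared. In the day test 0 of 89 members passed (background 0%), and 0 had an unadjusted p under 0.05, against 1.82% of all tested genes. The median difference of day 2 from day 1 was -0.052 log2 over the members and 0.001 over all tested genes. Ndufb8 had the smallest p (0.0688), with means of 32.94 CPM on day 1 and 30.32 CPM on day 2, a difference of -0.117 ± 0.059 log2. Whether the wave differed between days was tested as an interaction, in which 0 of 89 passed (background 0%) and 12 had an unadjusted p under 0.05, against 4.44% of all tested genes. Without CT2 day 1 this was 3 of 89 members, against 396 of 16396 genes. Leaving out CT2 day 2 instead also gave 3 members (431 genes), and leaving out CT14 day 2 gave 2 (490 genes). Leaving out CT6 day 1 gave 36 (889 genes). The count thus moved with several libraries, and a fall was not particular to CT2 day 1. With all 12 libraries the smallest p was that of Ndufc2 (0.00638, adjusted 0.825, edgeR). Ndufc2 was at 56.17 CPM in CT2 day 1 and 33.86 to 42.2 CPM in the other 11 libraries.

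Genes next to the respiratory chain in function did not pass for the wave, as none of the 16396 tested genes did. Of 47 further subunits and assembly factors tested, 0 passed for the wave and 5 had an unadjusted p under 0.05, against 13.3% of all tested genes. Cmc1 and Lyrm7, assembly factors of complexes IV and III, had the smallest, with amplitudes of 0.202 ± 0.056 and 0.269 ± 0.083 and peaks at 4.11 and 4.05 h. The CT2 day 1 difference of these 47 genes had a median of 0.176 log2. Of 13 regulators of respiratory genes 0 passed and 0 had an unadjusted p under 0.05, against 13.3% of all tested genes. Their median CT2 day 1 difference was -0.061. Nrf1, which encodes a factor that activates many nuclear respiratory genes, ranged from 52.8 to 60.65 CPM, and Ppargc1b, a coactivator of the same programme, from 10.96 to 16.24 CPM. Of 13 genes of the TCA cycle, which feeds electrons to the chain, 0 passed for the wave either. Of these, 0 had an unadjusted p under 0.05, against the same 13.3%, and their median CT2 day 1 difference was 0.064. The medians of these 3 lists lay below the 0.39 of the members, and a contrast between lists was not tested.

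Of the 13 mitochondrially encoded subunits none passed for the wave (background 0%, smallest adjusted p 0.238, edgeR), and 5 had an unadjusted p under 0.05, against 13.3% of all tested genes. Their mean deviation lay between -0.17 and -0.113 log2 CPM in the 4 libraries of CT10 and CT14 and between 0.046 and 0.2 in the 6 libraries of CT2, CT18 and CT22, on both days, and CT6 had 0.052 and -0.083. On log2 CPM they too were high in CT2 day 1, the highest library of 8 of the 13, against 19.1% of all tested genes. The median difference was 0.276 log2, and 11 of 13 lay above the mean of the others, against 50.6% of all tested genes. With the length trend removed their median was 0.04, against 0.192 for the nuclear members, and in TPM 0.08 against 0.162. Without CT2 day 1 the mean deviation of the mitochondrial genes spanned -0.17 to 0.14 and that of the 89 nuclear members -0.105 to 0.029. mt-Nd2, a complex I subunit, lay between 1563 and 2196 CPM, and its fitted wave had amplitude 0.178 ± 0.036 and crest at 23.5 h. mt-Nd1, another, lay between 2628 and 3771 CPM, with amplitude 0.176 ± 0.039. A difference in course between the nuclear and the mitochondrial genes was not tested.

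Promoters of nuclear respiratory genes are known for sites of NRF1, of GABP (also called NRF2) and of YY1. RefSeq promoter windows (GRCm38.p6), from 250 bases before to 50 after the start, were found for 77 members (82 windows) and read on both strands. For NRF1 the letters searched were GCGCA and GCGC with any 1 base between them, and they stood in 24.4% of member windows and in 4.6% of all 32851 windows, the GABP letters CCGGAAG stood in 22% and 8.86%, and the YY1 letters AAGATGGC in 13.4% and 2.75%. At least 1 of the 3 stood in 51.2% of member windows and 14.7% of all, and GABP and YY1 matches can overlap, since the end of the first and the start of the second share the letters AAG. The clock E-box CACGTG stood in 8.54% and 7.15%. Median GC content was 58.5% in member windows and 52.7% in all, and a match is a run of letters and not a shown site. Of the 8 members with an unadjusted p under 0.05 for the times, Ndufaf4 and Ndufaf1 hold such a match in a stretch free of annotated exons, and Ndufb6 is the most abundant member with a GABP match of that kind. Each line gives the 250 bases before the start, 5′ to 3′ on the gene's strand, with the match in capitals (in Ndufb6 it is the reverse complement of the GABP letters).
Ndufaf4, chr4:24897833-24898082, plus strand, NRF1: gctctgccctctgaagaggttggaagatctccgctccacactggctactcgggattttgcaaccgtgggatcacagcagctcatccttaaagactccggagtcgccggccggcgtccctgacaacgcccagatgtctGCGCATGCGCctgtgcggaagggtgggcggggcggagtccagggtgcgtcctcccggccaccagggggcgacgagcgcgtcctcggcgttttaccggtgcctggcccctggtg
Ndufaf1, chr2:119662835-119663084, minus strand, GABP: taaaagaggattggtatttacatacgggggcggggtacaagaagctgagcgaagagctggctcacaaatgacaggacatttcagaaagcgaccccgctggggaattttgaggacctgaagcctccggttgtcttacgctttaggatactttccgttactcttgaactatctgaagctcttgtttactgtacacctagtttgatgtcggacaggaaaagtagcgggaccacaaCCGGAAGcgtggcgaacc
Ndufb6, chr4:40279422-40279671, minus strand, GABP: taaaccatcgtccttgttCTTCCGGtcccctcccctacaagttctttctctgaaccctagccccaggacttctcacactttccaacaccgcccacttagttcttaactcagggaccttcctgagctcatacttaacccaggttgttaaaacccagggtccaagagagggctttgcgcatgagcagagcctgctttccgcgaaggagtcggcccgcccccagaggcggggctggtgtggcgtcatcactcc

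Ndufaf4 and Ndufaf1 thus carry different motifs. Ndufaf4 had its fitted peak at 20.6 h and Ndufaf1 at 23.4 h, both with lowest means at CT10. Ndufb6 lay between 22.47 and 28.13 CPM, and its amplitude was 0.051 ± 0.043. Its CT2 day 1 difference was 0.144 log2, among the smaller values of the accessory subunits. Atp5g2 holds an NRF1 match in its window, as do Atp5g3, Ndufa6 and Ndufs6, while Atp5j2 and Ndufs4 hold a YY1 match.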

How the data were processed

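PolyA RNA of mouse CD8+ T cells was measured in 12 libraries, 1 for each of 6 circadian times on each of 2 days. Libraries were made with the KAPA HyperPrep kit for polyA RNA, per the labels. The build named is GRCm38, and the tools named are STAR 2.5.1b, RSEM 1.2.28, Trimmomatic 0.35 and bcl2fastq 2.19 (all per the submitters' processing notes). Which settings and which gene annotation were used is not given in the sources used here. Read counts were deposited by the authors: these are whole counts per gene in the layout of STAR, not normalised, and column 4 (1 strand) was used. The 4 lines that name no gene held 29.3% to 31.2% of fragments and were left out. The authors also deposited RSEM expected counts and TPM values, which RSEM scales to the same sum per library. Effective lengths came from the same deposited tables. Of 50600 identifiers, 50376 matched GENCODE M21 (45737 with the same version), which gave symbols, types and coordinates. The rule's prefixes also match 11 symbols that are not protein-coding, and these were left out.

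Counts were fitted with edgeR 4.0.16 in R 4.3.3, with filterByExpr by circadian time (16396 genes) and TMM factors. Quasi-likelihood F tests asked for a 24 h cosine and sine, for the 6 times, for the day beside the wave and for wave by day, with Benjamini-Hochberg adjustment over all tested genes and a threshold of 0.05. Log2 CPM used a prior count of 2. Alternatives used DESeq2 1.42.0, expected counts rounded to whole numbers, limma 3.58.1 on log2(TPM + 1) for genes with a TPM of at least 1 in 2 libraries, no filter, removal of a lowess trend (span 0.3) on length or GC, the day as a block, and libraries left out. Removal of the GC trend was chosen after seeing the data. The fits were tested on simulated data, with 50 genes at each true amplitude. At amplitudes of 0.1, 0.2, 0.4 and 0.8 log2 the wave test recovered 10%, 42%, 92% and 100% of them. The test of times recovered 6%, 22%, 90% and 100%. Each circadian time has 1 library per day, and replicate numbers stand for days in the labels, so they pair libraries. Over 10153 genes the deviations of same-day libraries from their group means, in the 15 pairs of times, correlated from -0.60 to 0.35 (median 0.08), 6 of them above 0.1.

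The members, lists and tests were chosen with earlier results of these data known. Named members were, per group, the 2 of highest and the 1 of lowest TPM and the 2 of smallest p in the 24 h and times tests, over all groups the 3 of smallest p in the day and interaction tests, those that pass a test, Sdha to Sdhd, Cycs, and paralogous isoforms. Of each other list it was the 2 genes of smallest p for the wave. Members named beyond this rule (Uqcrc1, Ndufa10, Ndufab1, Ndufb6, Ndufs4, Ndufs6, and the genes listed for shared reads) were chosen after their values were seen.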

Additional observations from a re-analysis of the deposited data

Results flagged for a closer look

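The CT2 day 1 library lay far from the other 5 libraries of its day in the mean of the members. The deviation was 0.337 log2 CPM for all members, with the rest between -0.105 and 0.029. It was 0.187 for the complex I core, 0.359 for its accessory subunits, 0.236 for complex II, 0.403 for complex III with cytochrome c, 0.403 for ubiquitous complex IV genes and 0.33 for complex V. The gap to the nearest library took 0.659 to 0.764 of the range of the 6 libraries, above Dixon's 95% critical value. On day 1 this held for 7 of 10 means tested, all members included, and not for the complex I assembly factors, the complex IV tissue isoforms or Atp5s. On day 2 it held for 0 of 10. Among single members it held for 42 of 89 on day 1, against 10.8% of all tested genes, and in 41 of them at CT2, against 5.51%. On day 2 it held for 1 of 89, against 6.34% of all tested genes. Chance gives such a gap in about 1 group of 20 (5%), and the members of 1 library are not independent of each other.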

How the results depend on the processing

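No member passed the 24 h test except Atp5g2 without both CT2 libraries (1 member). For the circadian times, the count of members was 0 except with no filter (31) and with libraries left out, where it ranged from 0 to 51. For the day and for wave by day it was 0 in every alternative run. Over all genes, 24 h waves passed in 0 genes, in 323 with no filter, 246 with DESeq2, 431 without both CT2 libraries and 0 to 142 with 1 library left out. The test of times passed 42 genes, and 2146 with no filter, 527 with DESeq2, 24 with limma, 526 without both CT2 libraries, 0 without both CT14 libraries and 6 to 1800 with 1 library left out. The day as a replicate block passed 20 genes for the times in place of 42, and it changed no call of a member. For the day, 6 genes passed with DESeq2, 6 without both CT2 libraries and 0 to 2 with 1 library left out. For wave by day, 0 to 1 passed with 1 library left out. The range of the members' mean level over libraries was 0.442 log2, 0.281 with the length trend removed, 0.215 in TPM and 0.134 to 0.442 with 1 library left out, lowest without CT2 day 1. The causes of these differences were not tested. Depth limits Cox6b2 (255 counts in all 12 libraries), Cox4i2 (569 counts, 16 to 79 per library) and the 5 members that were not tested.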
